A study of Mus musculus with 8 samples.

Results

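The genes described here are 9 that are commonly used to mark non-classical, or patrolling, monocytes: *Ace*, *Cd177*, *Ceacam1*, *Treml4*, *Spn*, *Emr4*, *Nr4a1*, *Fcgr4* and *Cx3cr1*. They are 9 of the 24787 genes listed for the series, and all 9 were found. They were selected on these data, with the near absence of *Ace* after medium BPD already known, so the differences between medium BPD and the other groups are a description, and no test result is read from them. They were measured by single-cell RNA sequencing of 8 tumors of MC38, a mouse colon carcinoma line, with 1 tumor from each mouse. Tumors were taken 24 hours after dosing, with 3 tumors given saline, 3 given free R848 and 2 given medium BPD. R848 is resiquimod, a small molecule that activates the RNA sensors Toll-like receptor 7 and 8, and medium BPD is a bottlebrush polymer prodrug that carries R848 on the linker of medium release rate. All the tumors grew from 1 cultured line, and cells that carry the pan-leukocyte protein CD45 were loaded in 9-fold excess over the CD45-negative cells, so the shares of tumor and stromal cells reflect the loading.

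Patrolling monocytes are blood monocytes that crawl along the wall of small vessels and clear debris from it. In mice they carry little Ly6C, the surface protein of classical monocytes, and much of the fractalkine receptor encoded by *Cx3cr1*. They arise largely from classical monocytes, and the orphan nuclear receptor Nr4a1 is needed for their formation. Classical monocytes that enter a tumor can instead become macrophages, which make the complement proteins C1q.

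The files held 10791 cell barcodes, of which 9886 passed the quality limits, with 5867590 to 12422614 unique molecular identifiers (UMIs, counted RNA molecules) per tumor. The medians per cell were 3247 to 6928 UMIs. Clustering without the 9 genes placed 5399 cells in 10 clusters with macrophage or monocyte markers, called mononuclear phagocytes below, at 501 to 938 cells per tumor. Saline replicate 2 stood apart, with 49 of its 938 mononuclear phagocytes in the clusters c1 and c7 described below, against 46.0% and 44.4% in the other saline tumors. In all, 56 cells carried a barcode also found in another tumor, and leaving them out left the number of the 9 genes called the same in each test.

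*Ace* encodes angiotensin-converting enzyme, the peptidase that makes angiotensin II, and among mononuclear phagocytes its RNA was, of the 9, the most concentrated in a few clusters. The gene lies on the plus strand at chr11:105967945-105989964 of the mouse build GRCm38. RefSeq gives it a pair of start sites, which counts from the 3′ end of the RNA cannot separate. The 250 bases before each start are shown because *Ace* is the gene the other values turn on, with matches to 4 short motifs in capitals. The motifs, searched on both strands, were AGGAAG (ETS factors such as PU.1), GGGCGG (GC box), TTNNGCAA (C/EBP factors) and AAAGGTCA (the element bound by Nr4a1).
Ace, first start, chr11:105967698-105967947, plus strand: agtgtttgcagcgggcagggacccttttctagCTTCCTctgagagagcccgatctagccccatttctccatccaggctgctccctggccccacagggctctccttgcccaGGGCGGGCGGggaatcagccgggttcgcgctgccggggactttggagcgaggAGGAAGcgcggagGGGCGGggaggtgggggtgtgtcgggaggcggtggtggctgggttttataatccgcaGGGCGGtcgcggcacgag
Ace, second start, inside the gene, chr11:105974939-105975188, plus strand: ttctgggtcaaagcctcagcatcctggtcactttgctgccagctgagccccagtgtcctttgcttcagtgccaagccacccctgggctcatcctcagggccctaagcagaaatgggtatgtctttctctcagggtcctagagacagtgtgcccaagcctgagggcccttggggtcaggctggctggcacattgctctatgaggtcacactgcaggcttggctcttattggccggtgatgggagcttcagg
The window before the first start was rich in G and C (67.2%, with 19 CpG, against medians of 52.4% and 6 over 32851 mouse promoters). It held 2 matches to AGGAAG and 4 to GGGCGG, of which 2 GC boxes overlap. The second window held 1 CpG and no match.

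*Emr4* (also *Adgre4*, chr17:55749984-55853662, plus strand) encodes an adhesion G protein-coupled receptor of myeloid cells. *Treml4* (chr17:48264295-48275360, plus strand) encodes a receptor related to the TREM family, and *Ceacam1* (chr7:25461707-25477603, minus strand) an adhesion molecule. These 3 had the largest log2 fold changes of the listed genes in cells holding *Ace*, so the 250 bases before their starts are given for comparison, from RefSeq on GRCm38.
Emr4, chr17:55749734-55749983, plus strand: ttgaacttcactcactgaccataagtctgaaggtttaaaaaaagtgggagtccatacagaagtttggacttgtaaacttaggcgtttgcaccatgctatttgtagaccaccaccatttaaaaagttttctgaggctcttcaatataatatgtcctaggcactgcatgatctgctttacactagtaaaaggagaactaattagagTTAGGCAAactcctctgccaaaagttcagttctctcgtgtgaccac
Treml4, chr17:48264045-48264294, plus strand: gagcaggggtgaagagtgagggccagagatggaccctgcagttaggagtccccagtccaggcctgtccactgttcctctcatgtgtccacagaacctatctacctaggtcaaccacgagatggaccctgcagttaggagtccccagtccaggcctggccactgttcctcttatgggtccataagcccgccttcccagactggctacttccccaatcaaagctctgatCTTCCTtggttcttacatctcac
Ceacam1, chr7:25477626-25477875, minus strand: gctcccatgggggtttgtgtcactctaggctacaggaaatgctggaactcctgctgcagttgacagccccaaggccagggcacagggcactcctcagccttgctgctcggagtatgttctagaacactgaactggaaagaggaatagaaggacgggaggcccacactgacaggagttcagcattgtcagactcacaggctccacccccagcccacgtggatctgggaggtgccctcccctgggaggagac
The 4 genes shared no motif across these windows. *Emr4* held 1 match to TTNNGCAA, *Treml4* 1 match to AGGAAG on the opposite strand, and *Ceacam1* none. None of the 10 windows of the 9 genes held AAAGGTCA. Over all promoters AGGAAG was found in 29.5%, GGGCGG in 32.7%, TTNNGCAA in 9.56% and AAAGGTCA in 1.34%. Counts of *Ceacam1* are uncertain where reads also match its near-identical neighbor *Ceacam2*.

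The other 5 genes are *Cd177* (chr7:24743983-24760311, minus strand), a surface glycoprotein best known from neutrophils, *Spn* (chr7:127132232-127137823, minus strand), the sialoglycoprotein CD43 of most leukocytes, *Nr4a1* (chr15:101254269-101274795, plus strand), *Fcgr4* (chr1:171018920-171029761, plus strand), an activating receptor for IgG, and *Cx3cr1* (chr9:119901616-120069879, minus strand).

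The 9 genes did not share 1 pattern across the mononuclear phagocytes. Clusters c1 and c7, led by the monocyte genes *Lyz2*, *Thbs1*, *Vcan* and *Chi3l3*, made up 1140 of the 5399 cells, or 21.1%. They held 90.2% of the *Ace* UMIs of the class, 82.8% of those of *Emr4* and 72.8% of those of *Cd177*. They held 51.7% of the *Ceacam1* UMIs and 38.7% of the *Treml4* UMIs. *Nr4a1* was spread more evenly, with 29.3% of its UMIs there. The remaining 3 genes lay elsewhere, with 8.44% of *Fcgr4*, 5.73% of *Spn* and 4.75% of *Cx3cr1* UMIs in c1 and c7. In counts summed over the tumors, *Cx3cr1* was most abundant in the macrophage-like clusters c3 and c4, at 1014 and 1000 raw CPM (UMIs of the gene in every 1000000 UMIs of the cells, with no further scaling). This order did not hold in every tumor, since medium BPD replicate 2 had more of it in c0 (466) than in c3 (254) or c4 (350), and saline replicate 1 more in c2 (606) than in c4 (445). *Spn* reached 339 and 469 raw CPM in the same clusters and was as abundant in NK cell-like (487) and T cell-like (392) cells. *Fcgr4* was at 789 raw CPM in c0, 740 in c6 and 726 in c4. Of the 535 c6 cells 264 and 224 came from the medium BPD tumors, and in the 3 free R848 tumors *Fcgr4* was lower in c6 (581, 389 and 439) than in c4 (834, 481 and 803). These levels describe the clusters and were not tested between them.

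**Figure D1:**
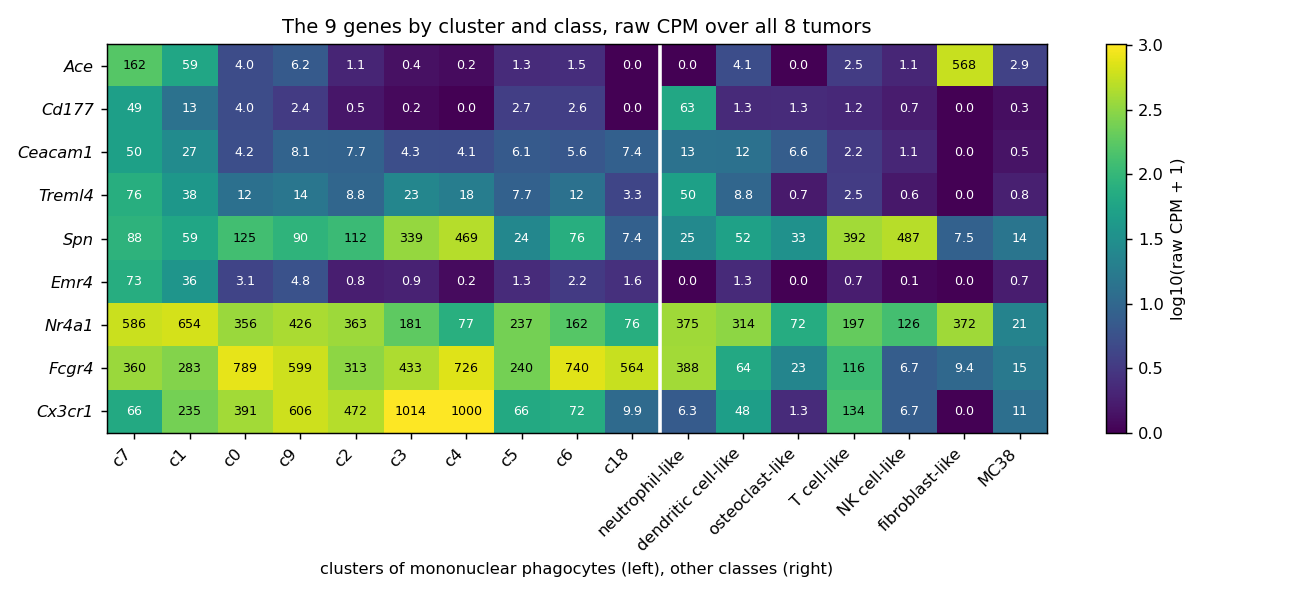
Level of each of the 9 genes (rows) in the 10 clusters of mononuclear phagocytes (left of the white line) and in the other classes (right), as raw CPM summed over the 8 tumors; color is log10(raw CPM + 1) and the number is the level itself. *Ace* and *Emr4* peak in c7 and c1 among mononuclear phagocytes, *Cx3cr1* in c3 and c4, and the highest pooled *Ace* level is in fibroblast-like cells, most of which come from the medium BPD tumors.

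The cells holding *Ace* carried *Emr4*, *Treml4* and *Ceacam1* far more often than the other mononuclear phagocytes. In the saline and free R848 tumors 193 cells had at least 1 *Ace* UMI and 3966 had none, with 17 to 59 *Ace*-positive cells per tumor. *Emr4* was found in 39.9% of *Ace*-positive and 2.09% of *Ace*-negative cells, *Treml4* in 38.3% and 7.64%, and *Ceacam1* in 28% and 4.03%. The median number of UMIs per cell was 2531 to 5958 in the *Ace*-positive and 3184 to 6596 in the *Ace*-negative cells of a tumor, and the first was the higher in 1 of the 6 tumors.

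*Emr4* stood at 209, 157 and 248 CPM (counts in 1000000, scaled between tumors by TMM) in the *Ace*-positive cells of the free R848 tumors and at 205, 85.3 and 254 in those of the saline tumors. In the *Ace*-negative cells of the same tumors it never passed 6.52 CPM. The 2 sets of values did not overlap. The log2 fold change, with tumor as a block in edgeR's quasi-likelihood test, was 5.52 ± 0.26 (SE, adjusted p = 3.23e-20, higher in 6 of 6 tumors). *Treml4* was at 75.9 to 254 CPM in *Ace*-positive and 8.45 to 22.3 CPM in *Ace*-negative cells (log2 fold change 3.69 ± 0.25, adjusted p = 3.14e-15, 6 of 6 tumors). *Ceacam1* was at 28.4 to 149 and 6.05 to 10.4 CPM (3.61 ± 0.31, adjusted p = 2.32e-12, 6 of 6 tumors). Neither gene's values overlapped between the sets. Saline replicate 2 had the lowest *Ace*-positive value of all 3 genes.

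Of the 8 other listed genes, 7 were called at an adjusted p of 0.05, where 19.3% of the 8566 genes tested were called. All 8 passed the filter on low counts, *Emr4* only through the *Ace*-positive cells, where it was high. Its adjusted p is therefore a description. Beside the 3 genes above, *Nr4a1* was higher in *Ace*-positive cells by 1.33 ± 0.14 on the log2 scale (adjusted p = 3.86e-10, 6 of 6 tumors). *Cd177* was higher by 1.53 ± 0.48 (adjusted p = 0.0198, 5 of 6 tumors) and *Spn* by 0.58 ± 0.18 (adjusted p = 0.0154, 5 of 6 tumors), and both calls were lost under some alternatives, with log2 fold changes of 1.32 to 1.37 for *Cd177* and 0.45 to 0.55 for *Spn* where they were lost. Without saline replicate 1 the adjusted p was 0.209 for *Cd177* and 0.0566 for *Spn*, and without saline replicate 3 it was 0.0990 and 0.106. For *Spn* it was also 0.0677 without free R848 replicate 1 and 0.0646 without free R848 replicate 3. The *Cd177* call was also lost when *Ace*-positive cells were defined after thinning (adjusted p = 0.249), and the *Spn* call without the filter on low counts (adjusted p = 0.0678). *Cx3cr1* was lower by the same test, with a log2 fold change of -1.03 ± 0.16 (adjusted p = 5.74e-06, lower in every one of the 6 tumors), at 136 to 436 CPM against 277 to 708. *Fcgr4* stood at 121 to 837 CPM in *Ace*-positive and 141 to 687 CPM in *Ace*-negative cells and was not called (0.09 ± 0.14, adjusted p = 0.724).

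Between 61.5% and 95% of the *Ace*-negative cells of a tumor had 2 or more UMIs of the macrophage genes *C1qa*, *C1qb* and *C1qc*, against 9.38% to 70.6% of the *Ace*-positive cells. The comparison was therefore repeated within C1q-low cells, which had fewer than 2 C1q UMIs after thinning each cell to 1000 UMIs. *Emr4* (4.46), *Treml4* (3.55), *Ceacam1* (2.93) and *Nr4a1* (0.95) remained called and higher on the log2 scale. *Spn* rose from 0.58 to a log2 fold change of 2.55 ± 0.24 (adjusted p = 2.12e-09). *Cx3cr1* changed sign to 0.48 ± 0.19 and was not called (adjusted p = 0.0991). This comparison leaves out the C1q-high cells on both sides.

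**Figure D2:**
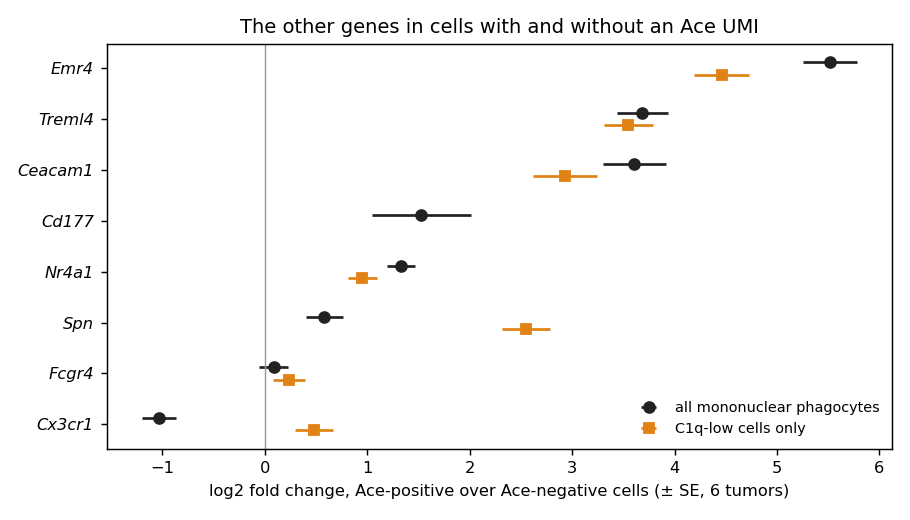
log2 fold change of the 8 other genes (rows) in *Ace*-positive over *Ace*-negative cells of the 6 saline and free R848 tumors, with bars of ± 1 SE; circles compare all mononuclear phagocytes and squares C1q-low cells alone, where *Cd177* was not tested. *Emr4*, *Treml4* and *Ceacam1* lie far to the right in both, while *Cx3cr1* moves from -1.03 to 0.48.

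The genes of *Ace*-positive cells included those of classical monocytes. Between 72.9% and 96.3% of the *Ace*-positive cells of a tumor had a *Ly6c2* UMI, against 34.5% to 69.6% of *Ace*-negative cells, although patrolling monocytes are defined by little Ly6C. Of a list of 12 classical monocyte genes, 9 were higher and 0 lower (median log2 fold change 1.61, against -0.11 over all genes tested, of which 10.3% were called higher and 9.06% lower), among them *Hp* (haptoglobin, 2.54), *Plac8* (2.32), *Vcan* (versican, 1.86) and *Ly6c2* (1.00). Of 19 tested genes from a list of 23 other non-classical monocyte genes, 12 were higher and 0 lower (median 0.74), among them *Ear2* (a ribonuclease, 4.28), *Eno3* (an enolase, 3.0), *Itgal* (the integrin chain of LFA-1, 2.61) and *Cebpb* (a transcription factor of myeloid cells, 1.24). Of 9 macrophage genes, 8 were lower and 0 higher (median -1.70). Of 16 immediate-early genes, the rapidly induced class to which *Nr4a1* belongs, 6 were higher, among them its relative *Nr4a2* (0.59), and 1 was lower, *Fosb* (-0.65, median 0.37). The *Ace*-positive cells carried genes from both monocyte lists, and the data do not single them out as patrolling monocytes.

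By a rule on size, level and direction, the 10 genes with the pattern most like *Ace* were *Emr4*, *Treml4*, *Ceacam1*, *Ifitm6* (2.85), *Trem3* (2.78), *Dgat2* (2.73), *Gsr* (2.68), *Cd97* (2.63), *Itgal* and *Hp*, from 532 eligible genes, with log2 fold changes over 6 tumors. *Dgat2* encodes an enzyme of triglyceride synthesis and *Gsr* glutathione reductase. *Cd97*, now *Adgre5*, is of the same receptor family as *Emr4*. *Itgal*, at 493 CPM in *Ace*-positive and 83.0 CPM in *Ace*-negative cells on average, was also on the list of other non-classical genes.

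Markers of other cells were counted in the same sets. The 10 neutrophil markers summed to 288 to 2701 raw CPM in the *Ace*-positive cells of a tumor and 216 to 851 in the *Ace*-negative cells, higher in the *Ace*-positive cells of 6 of 6 tumors, and their part in the result was not tested. The 6 endothelial markers summed to 93.8 raw CPM in *Ace*-positive cells, with 3 of the 6 at 0, and 85.3 in *Ace*-negative cells. The 7 fibroblast markers summed to 18.5 and 16.0 raw CPM. The 13 T cell markers summed to 65.9 and 22.7 raw CPM, with all 13 at 0 in the *Ace*-positive cells of 3 of the 6 tumors. Of their 64 UMIs in *Ace*-positive cells, 29 came from free R848 replicate 1 and 34 from saline replicate 1. The part of these markers was not tested either.

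Gating all mononuclear phagocytes on C1q separated the genes again. Cells with 2 or more C1q UMIs among 1000 drawn per cell were called C1q-high and the others C1q-low, and the 9 genes played no part in the gate. Of 5371 cells gated, 421 (7.84%) lay at 1 or 2 C1q UMIs, and 110 of the 1676 T and NK cell-like cells (6.56%), which should lack C1q, also reached the limit. *Treml4* was higher in C1q-low cells, at 37.7 ± 18.2 against 11.7 ± 5.42 CPM (SD, n = 8 tumors, log2 fold change 1.66 ± 0.22, adjusted p = 2.56e-05, 8 of 8 tumors). The gap differed in size, at 51.7 against 14.4 raw CPM over the free R848 tumors, 33.8 against 17.0 over the saline tumors and 11 against 10.2 over the medium BPD tumors, and that difference between treatments was not tested. *Ceacam1* was higher too, at 23.0 ± 14.4 against 5.79 ± 1.66 CPM (1.97 ± 0.33, adjusted p = 0.000171), in 7 of 8 tumors, the exception being medium BPD replicate 2. *Nr4a1* was at 482 ± 218 and 255 ± 126 CPM (0.93 ± 0.10, adjusted p = 4.14e-06, 8 of 8 tumors).

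*Cx3cr1* and *Spn* went the other way. *Cx3cr1* was at 151 ± 58.6 CPM in C1q-low and 485 ± 184 CPM in C1q-high cells (-1.69 ± 0.09, adjusted p = 1.08e-09), and *Spn* at 72.6 ± 24.6 and 175 ± 78.5 CPM (-1.22 ± 0.11, adjusted p = 7.44e-07), each lower in C1q-low cells of all 8 tumors. *Fcgr4* was at 434 ± 181 and 498 ± 243 CPM and was not called (adjusted p = 0.442). In all, 5 of the 6 genes tested were called, where 40.8% of 8705 genes were. *Ace*, *Cd177* and *Emr4* did not pass the filter on low counts. *Ace* stood at 49.8 to 106 CPM in the C1q-low and 1.97 to 8.39 CPM in the C1q-high cells of the 6 saline and free R848 tumors, and these ranges did not overlap. *Emr4* stood at 20.02 to 52.2 and 1.04 to 3.79 CPM in the same cells. Of the 12 classical monocyte genes 12 were higher in C1q-low cells (median 2.05, all genes -0.02), and of 20 other non-classical genes tested 6 were higher and 4 lower (median 0.17). Of 16 immediate-early genes 13 were higher and 0 lower (median 0.42). The partner and family genes gave 8 higher and 2 lower of 12, and the macrophage genes, 3 of which make the gate, 1 higher and 7 lower of 9.

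Each gate was also divided by whether a *Ly6c2* UMI was among the same 1000 drawn per cell, so a cell without one in the draw may still carry *Ly6c2*, as most *Ace*-positive cells did over all their UMIs. In C1q-low cells with *Ly6c2* in the draw *Ace* stood at 38.9, 69.1 and 50.6 raw CPM in the saline tumors and 109, 79.7 and 93.5 in the free R848 tumors. In C1q-low cells without it in the draw *Ace* stood at 124, 50.6 and 83.7, and at 99.0, 3.06 and 105. The values of the 2 gates overlapped in both treatments, and free R848 replicate 2 had 1 *Ace* UMI in the gate without drawn *Ly6c2*. These gates therefore do not set apart cells that lack *Ly6c2*. Summed over the 8 tumors, *Ace* came next in C1q-high cells with drawn *Ly6c2*, at 10.2 raw CPM, with 27 of the 49 UMIs from free R848 replicate 1. It came last in C1q-high cells without drawn *Ly6c2*, at 1.20 raw CPM, a level close to that of NK cell-like cells (1.12).

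**Figure D3:**
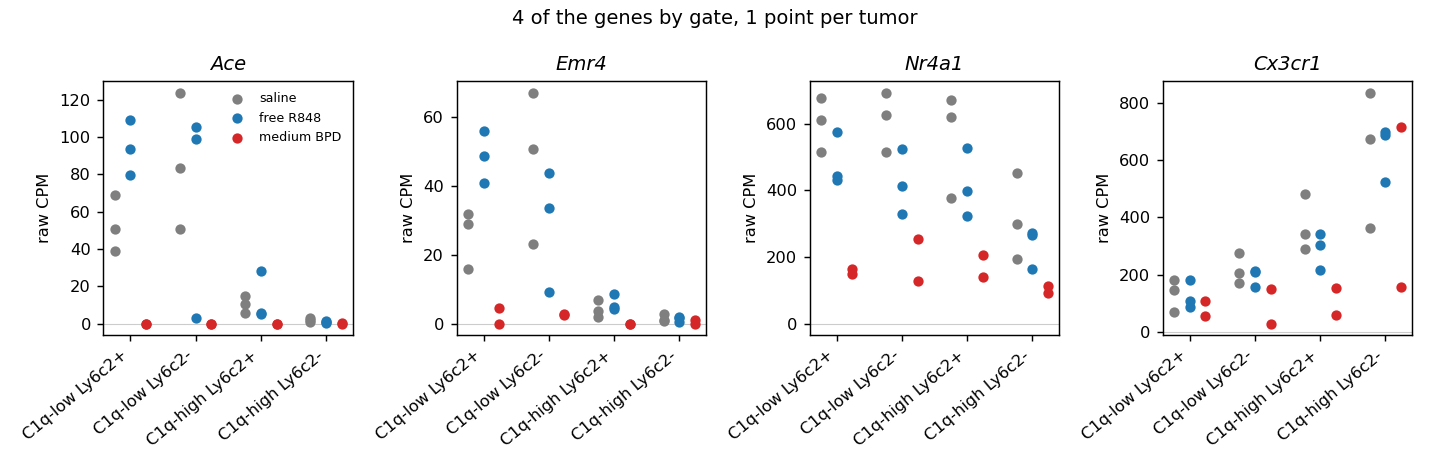
raw CPM of *Ace*, *Emr4*, *Nr4a1* and *Cx3cr1* in the 4 gates of mononuclear phagocytes (x axis, set on 1000 UMIs drawn per cell), 1 point per tumor, gray for saline, blue for free R848 and red for medium BPD. *Ace* and *Emr4* lie higher in the C1q-low than in the C1q-high gates of most saline and free R848 tumors, an exception being free R848 replicate 2 in the C1q-low gate without *Ly6c2* (*Ace* 3.06), *Cx3cr1* is highest in the C1q-high gate without *Ly6c2*, and the medium BPD points of *Ace* lie at 0 in both C1q-low gates.

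Free R848 was tested against saline. The selection rule singled out *Ace* after medium BPD, but the genes were chosen with results of all treatments known. None of the 9 was called in mononuclear phagocytes by edgeR, 0 had an unadjusted p under 0.05 and DESeq2 also called 0. Over all genes 0.0189% of 10601 were called. *Ace* stood at 34.4, 11.6 and 36.5 CPM after free R848 and at 28.6, 5.40 and 24.5 CPM after saline (log2 fold change 0.53 ± 0.59, adjusted p = 0.770), and the groups overlapped, as they did for each of the 9 genes. None of the 5 gene lists held a call either, with 21 other non-classical, 12 classical, 16 immediate-early, 12 partner and 9 macrophage genes tested (medians 0.10, -0.07, 0.01, 0.27 and -0.05). In summed counts, fewer cells with a gene and less RNA per cell cannot be told apart.

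Of the 9 genes, *Fcgr4* and *Cd177* had the largest log2 fold changes, up or down, between free R848 and saline. *Fcgr4* stood at 718, 427 and 567 CPM after free R848 and 144, 579 and 171 CPM after saline (0.93 ± 0.47, adjusted p = 0.497). *Cd177* stood at 4.42, 2.0 and 4.94 CPM after free R848 and 18, 2.19 and 13.8 CPM after saline (-1.56 ± 0.70, adjusted p = 0.449). In both genes it was saline replicate 2 that lay among the free R848 values. Without it *Fcgr4* was called higher after free R848 (1.86, adjusted p = 0.0107) and *Cd177* lower (-2.13, adjusted p = 0.0331), 2 of 93 genes then called.

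The share of *Ace*-positive cells did not separate free R848 from saline either. With each cell thinned to 1000 UMIs it was 3.07%, 1.05% and 3.61% after free R848 and 3.85%, 0.533% and 2.12% after saline. The means were 2.57% ± 1.35 and 2.17% ± 1.66 (SD, n = 3 each), a difference of 0.407 percentage points (2-sided exact permutation test, p = 0.8, with 0.1 the smallest p that 3 against 3 tumors allow). The difference was -0.109 points without free R848 replicate 3 and -0.410 points without saline replicate 2, so its direction rested on single tumors. Without thinning, 4.76% and 4.55% of all mononuclear phagocytes of the free R848 and saline groups had an *Ace* UMI. Thinned NK cell-like cells had it in 0 of 468 cells of the saline tumors, which allows up to 0.641%, and in 0 of 283 cells of the free R848 tumors, which allows up to 1.06%.

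After medium BPD the *Ace* counts of mononuclear phagocytes were 2 UMIs in the first tumor and 0 in the second, or 0.351 and 0 CPM. Pooled, this was 0.238 raw CPM (95% Poisson interval 0.0288 to 0.860, counting error only), against 16.4 in saline and 26.3 in free R848 tumors. The pooled ratio to saline was 0.0145 and to free R848 0.00906. In the C1q-low cells, where *Ace* was found in the other groups, there were 0 UMIs in 365 cells. Set against a limit of 3 counts over the group (1.65 raw CPM), *Ace* was there at least 40.9-fold lower than in saline tumors (67.5 raw CPM, 702 cells) and at least 53.0-fold lower than in free R848 tumors (87.5 raw CPM, 565 cells). These pooled figures describe the contrast used to select the genes, and they leave out the spread between tumors. After thinning, 0 of 710 and 0 of 529 cells were *Ace*-positive.

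The listed genes with the largest log2 fold changes in *Ace*-positive cells, *Emr4*, *Treml4* and *Ceacam1*, were also low after medium BPD. *Emr4* stood at 0.702 and 1.13 CPM, below every saline (17.1, 3.50 and 14.9) and free R848 tumor (14.9, 7.56 and 17.5). *Ceacam1* stood at 5.61 and 4.91 CPM, below 12, 6.57 and 14.9 in saline and 14.4, 9.56 and 14.8 in free R848 tumors. *Treml4* stood at 12.1 and 6.79 CPM, below 13.9, 23.8 and 21.0 in saline and 27.4, 19.8 and 23.9 in free R848 tumors. The gap was of different depth, with a ratio of means to saline of 0.0775 for *Emr4* and 0.471 and 0.482 for *Ceacam1* and *Treml4*. *Cd177*, at 0.526 and 1.13 CPM, had a ratio of 0.0732 and also lay below both other groups. *Nr4a1* stood at 127 and 128 CPM, below 560, 216 and 459 in saline and 257, 336 and 411 in free R848 tumors (ratio to saline 0.309). How many of all genes lay below both other groups in this way was not counted. Not all genes with a pattern like *Ace* were low. Means after medium BPD, saline and free R848 were 206, 54.3 and 49.4 CPM for *Hp* and 29.4, 19.7 and 26.9 for *Trem3*. They were 194, 153 and 203 CPM for *Cd97* and 96.9, 99.9 and 105 for *Itgal*. Values of *Ifitm6*, *Dgat2* and *Gsr* are not given here.

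*Fcgr4*, *Spn* and *Cx3cr1* did not lie below both other groups. *Fcgr4* stood at 634 and 743 CPM, above the 3 saline tumors and overlapping free R848, with a ratio of means to saline of 2.31. The saline values ran from 144 to 579 CPM, and the highest, of saline replicate 2, raised the saline mean. *Spn* stood at 304 and 132 CPM, against 77.4 to 199 in saline and 109 to 173 in free R848 tumors. *Cx3cr1* stood at 530 CPM in the first medium BPD tumor, within the saline range of 283 to 725 and above the free R848 range of 329 to 499, and at 125 CPM in the second, below both. The medium BPD tumors differed widely from each other in these last 2 genes. Over all 10601 genes 7.38% were called against saline and 1.71% against free R848. Calls among the 9 are not given, because the contrast was used to select them, and both comparisons share the medium BPD tumors. The lists are described by their median log2 difference of medium BPD from saline, with -0.01 over all genes tested. The medians were -0.21 for the other non-classical, -1.03 for the classical, -0.44 for the immediate-early, 0.38 for the partner and -0.10 for the macrophage genes.

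**Figure D4:**
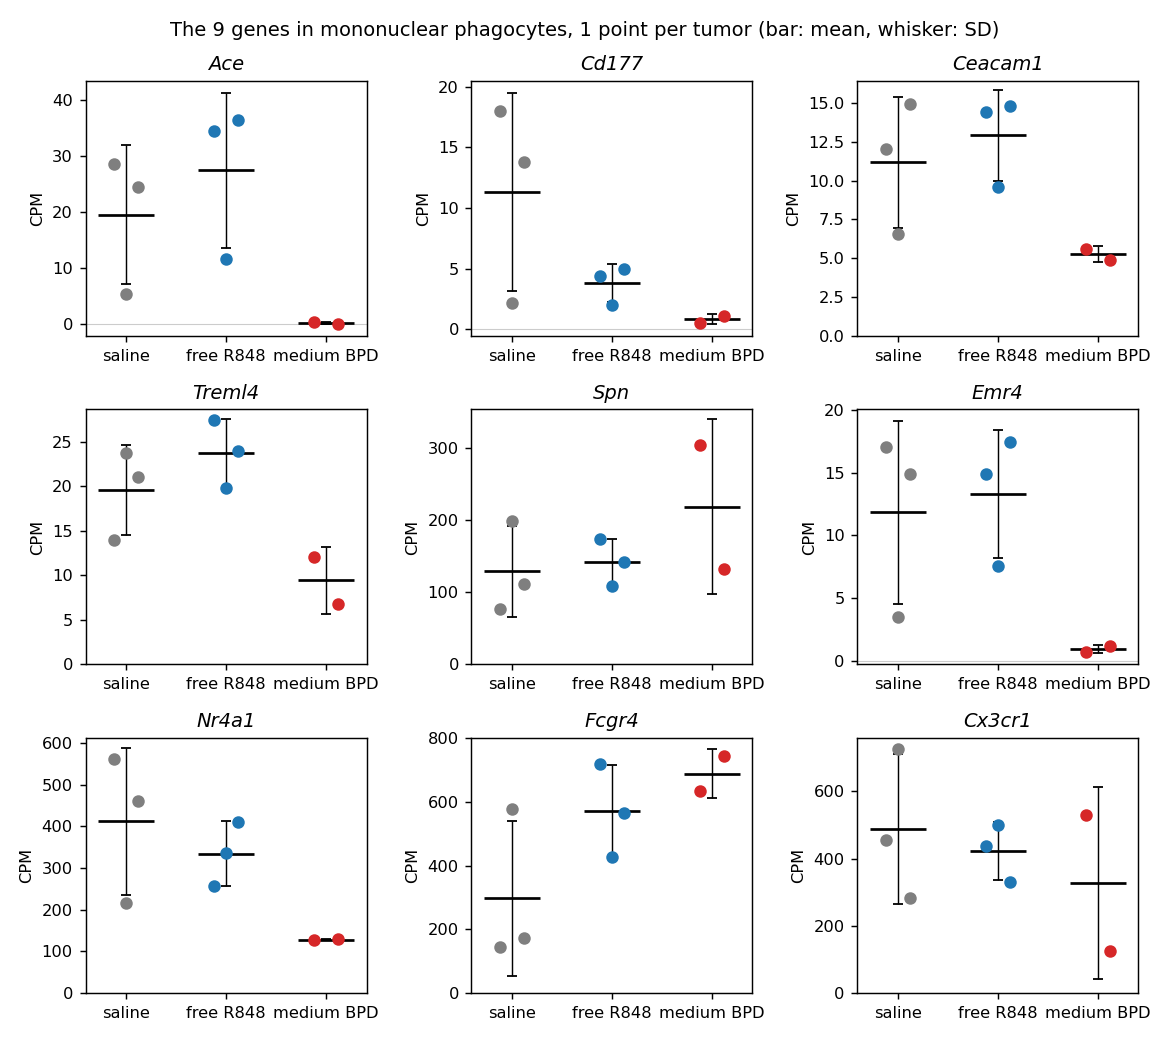
CPM of each of the 9 genes in mononuclear phagocytes after saline (gray, n = 3), free R848 (blue, n = 3) and medium BPD (red, n = 2), 1 point per tumor, with the mean as a bar and the SD as whiskers. In *Ace*, *Cd177*, *Ceacam1*, *Treml4*, *Emr4* and *Nr4a1* both red points lie below every other point, in *Fcgr4* they lie above the saline points, and in *Spn* and *Cx3cr1* the groups overlap. How many of all genes separate in this way was not counted.

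The mononuclear phagocytes of the medium BPD tumors also came from other clusters. Clusters c1 and c7 made up 0.423% and 1.13% of them, against 18.1% to 31.1% after free R848 and 46.0%, 5.22% and 44.4% after saline. Clusters c6 and c18, led by *Saa3*, *F13a1* and *Ccl8*, among others, made up 42.5% and 65.3%. Of the C1q-low cells, 68.2% lay in c6 and c18 after medium BPD, while 72.1% of those of saline and 51% of those of free R848 tumors lay in c1 and c7. In C1q-low cells *Emr4* stood at 2.75 raw CPM after medium BPD, 38.8 after saline and 42 after free R848, and *Nr4a1* at 189, 632 and 458. *Fcgr4* stood at 578, 198 and 484. Lower levels in the same cells and other cells in their place cannot be told apart here.

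Few single cells combined the scarce genes after medium BPD. Of *Ace*, *Cd177*, *Ceacam1*, *Treml4* and *Emr4*, a set chosen after their values were seen, at least 3 were found together in 17, 3 and 11 cells of the saline tumors and 21, 10 and 12 cells of the free R848 tumors. No such cell was among the 1240 of the medium BPD tumors. At least 2 of the 5 were found together in 7 cells of the medium BPD tumors, all of the first tumor, against 94 of 2372 cells after saline and 91 of 1787 after free R848. Since the 5 were already known to be low after medium BPD, these counts restate that in single cells and are no further evidence of it. Of the 74 cells with at least 3, 39 were in c7 and 28 in c1, and 63 carried *Ly6c2*.

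The *Ace* RNA of the medium BPD tumors lay in fibroblast-like cells. Of their 266 *Ace* UMIs in all cells, 252 (94.7%) were in 39 fibroblast-like cells and 2 (0.752%) in mononuclear phagocytes. In the saline tumors 220 of 284 UMIs (77.5%) and in the free R848 tumors 296 of 371 (79.8%) were in mononuclear phagocytes. The fibroblast-like class held 50 cells in all, 11 and 28 of them from the medium BPD tumors, so its values rest on few cells. *Ace* was found in 46 of the 50, at 568 raw CPM over the tumors. Of the 5 saline and free R848 tumors with such cells, from 1 to 4 cells each, 3 had more *Ace* in them than in c7 (260, 683 and 338 against 179, 158 and 121 raw CPM). Free R848 replicate 3 (83.1 against 216) and saline replicate 2 (200.5 against 232) had less. The collagen genes *Col1a1*, *Col3a1* and *Col1a2* were found in 50 of 50, while 4 of the 6 endothelial markers, *Pecam1*, *Cdh5*, *Cldn5* and *Emcn*, had 0 UMIs, *Kdr* 3 and *Egfl7* 2, although the endothelium is a known source of the enzyme. The other 8 genes did not follow *Ace* into these cells, apart from *Nr4a1* at 372 raw CPM. *Emr4*, *Treml4*, *Ceacam1*, *Cd177* and *Cx3cr1* had 0 UMIs there.

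**Figure D5:**
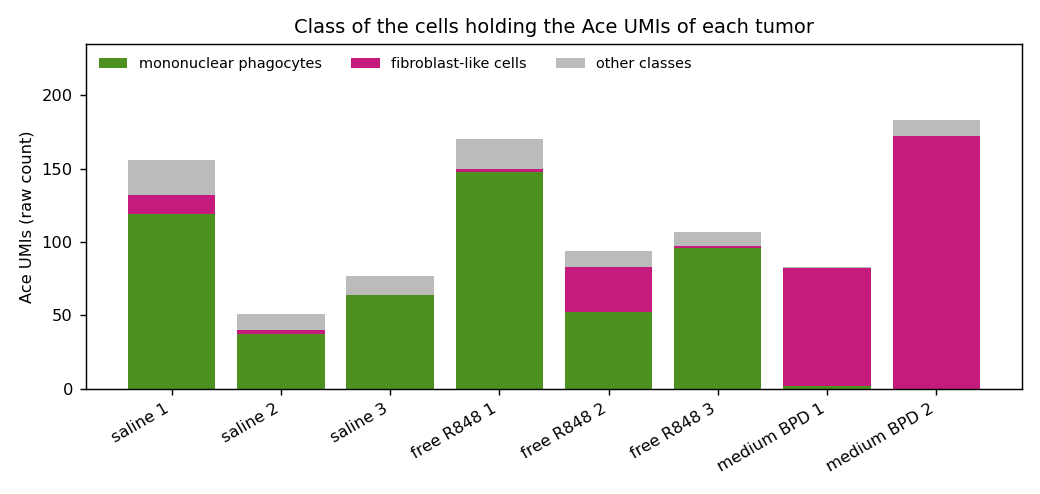
Raw *Ace* UMIs of each tumor (x axis) as stacked bars, divided by the class of the cell that held them: mononuclear phagocytes (green), fibroblast-like cells (magenta) and other classes (gray). The medium BPD bars are almost wholly magenta, with 80 of 83 and 172 of 183 UMIs, and the saline and free R848 bars mostly green.

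The partners of the enzyme were nearly unmeasured in mononuclear phagocytes. *Agtr1a*, the receptor of angiotensin II, had 28 UMIs in all cells, and 27 of them were in fibroblast-like cells. *Ren1*, the protease upstream of the enzyme, had 2 UMIs in all cells. Of 22 partner and family genes, 12 could be tested between *Ace*-positive and *Ace*-negative cells, with 5 higher and 3 lower (median log2 fold change 0.11), where over all 8566 genes 10.3% were called higher and 9.06% lower. The higher ones were *Trem3* (2.78) and *Trem1* (1.44), receptors of the family to which *Treml4* is related, *Adgre5* (listed as *Cd97*, 2.63), *Pecam1* (an adhesion molecule of monocytes and endothelium, 0.95) and *Selplg* (the selectin ligand PSGL-1, 0.48). The lower ones were *Trem2* (-1.58), *Adgre1* (the macrophage protein F4/80, -1.35) and *Fcgr2b* (the inhibitory receptor for IgG, -0.68). *Cx3cl1*, the ligand of Cx3cr1, had at most 5 UMIs in the mononuclear phagocytes of any tumor. *Cd177* had 10 UMIs in the 58 neutrophil-like cells, all of them in the 20 such cells of the medium BPD tumors, while its counts in mononuclear phagocytes were lowest there.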

How the data were processed

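Digested MC38 tumors were profiled by Seq-Well, which captures polyadenylated RNA of single cells in microwells and counts 3′ ends. The authors aligned the reads to mm10 and deposited 1 table of unnormalized UMI counts per tumor, genes by cells (bcl2fastq in the submitters' processing notes, version not given in the sources used here). The 9 genes and the gene lists were chosen with earlier results of these data known. The quality limits were the study's, above 400 and below 10000 genes, under 50000 UMIs and no more than 15% mitochondrial counts in a cell. They were clustered with Seurat 5.3.0 (30 components at resolution 0.8, then 11 at 1.3 for nonmalignant cells), with the 9 genes left out, and named from fixed markers. Another choice of cluster names than the study's may move cells between classes. Scrublet marked 100 doublets, which were kept. Counts were summed per tumor, class and gate and tested with edgeR 4.0.16 (quasi-likelihood, TMM, filterByExpr, Benjamini-Hochberg adjustment over all genes, 0.05), with all 8 tumors in the treatment fit and tumor as a block between gates. The study's test on single cells was not used, because cells are not replicates. DESeq2 1.42.0 was an alternative, and the fits were tested on simulated data. Of simulated 2-fold changes, 60.2% were recovered for free R848 against saline. The share was 97% between C1q gates and 47.9% between *Ace*-positive and *Ace*-negative cells. CPM carry TMM scaling and raw CPM do not. Named genes were the 9, examples from the lists, and the 10 genes called with the largest log2 fold change in *Ace*-positive cells, an average log2 CPM from 4 upward and the same direction in every tumor. Intervals and limits of 0 (3 counts) cover counting error only. Positions are from GENCODE vM21 on GRCm38, and promoters from RefSeq on GRCm38.p6. Total counts were 5867590 to 12422614 per tumor.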

Additional observations from a re-analysis of the deposited data

How the results depend on the processing

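No alternative gave a call for free R848 against saline in more than 2 of the 9 genes, with 0 in 15 of 17 alternatives. The count was 2 without a filter on low counts and 0 to 2 when single tumors were left out, the 2 being *Cd177* and *Fcgr4* without saline replicate 2 and without the filter. Over all genes 530 were called without the filter, 93 without saline replicate 2 and 39 by DESeq2, against 2. The replicate numbers did not pair the tumors (correlations of same-numbered free R848 and saline tumors of -0.238, -0.046 and 0.207), and with the replicate block 0 of the 9 were called. The difference in the share of *Ace*-positive cells ranged from -0.410 to 1.25 percentage points when tumors were left out (negative without free R848 replicate 3, -0.109, and without saline replicate 2, -0.410) and from 0.116 to 0.420 otherwise. With the replicate block it was 0.407 with a paired exact permutation p of 0.75, where 3 pairs allow no p under 0.25. Between C1q gates 5 to 8 genes were called over 17 alternatives, with 8 without the filter, which added *Ace* (4.29), *Cd177* (3.55) and *Emr4* (3.98), and 5 to 6 when tumors were left out. In the main fit 40.8% of all genes were called between these gates. The shares of all genes under the alternatives are not given here, so the counts are not read against them. Between *Ace*-positive and *Ace*-negative cells 5 to 7 were called over 15 alternatives. In the main fit 19.3% of all genes were called there, and the shares under the alternatives are again not given. *Cx3cr1* changed sign in C1q-low cells only (0.48), and the cause was not tested. *Cd177* lost its call in 3 of 14 alternatives and *Spn* in 5 of 15. Leaving out cells with shared barcodes, chosen after seeing the data, left the counts among the 9 genes the same, while over all genes the calls went from 3551 to 3537 between the C1q gates and from 1657 to 1691 between *Ace*-positive and *Ace*-negative cells. With 2 medium BPD tumors and single UMIs of *Ace*, depth limits what those values can show.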
